A study of Mus musculus with 6 samples.

Results

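The 9 genes Tfam, Tfb1m, Tfb2m, Polg, Polg2, Polrmt, Ssbp1, Top1mt and Lrpprc encode proteins that copy, package, transcribe and keep the transcripts of mitochondrial DNA. They were chosen by function, with earlier results of these data known. Their probes were those whose platform annotation carries one of these symbols, 17 of the 45281 probes on the array. Male mice aged 3 months gave the tibialis anterior, a shin muscle built mainly of fast fibres, and its RNA was read on 1-colour Illumina Mouse WG-6 v2 BeadChips, with 3 arrays of genotype wild type and 3 of genotype PGC1b transgenic. PGC1b is the transcriptional coactivator PGC-1β, encoded by Ppargc1b. The promoter of the transgene, the strain and the number of founder lines are not given in the sources used here, nor is it said that each array is a separate animal. The p-values therefore cover only the array-to-array spread within a genotype, part of which may be technical.

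Mitochondrial DNA is a small circle present in many copies per cell. All proteins that replicate and transcribe it are encoded in the nucleus and imported. TFAM, a high-mobility-group protein, coats and compacts the circle and bends the promoters, where the RNA polymerase POLRMT and its partner TFB2M start transcription. The replicating DNA polymerase consists of the catalytic subunit POLG and the accessory subunit POLG2, SSBP1 covers the displaced single strand, and TOP1MT relaxes supercoils. TFB1M methylates the ribosomal RNA of the small mitochondrial subunit, and LRPPRC, with its partner SLIRP, protects mitochondrial mRNAs and promotes their polyadenylation. PGC-1 coactivators are known to act on several of these genes through the nuclear respiratory factors NRF-1 and NRF-2, the latter an ETS-family factor also called GABP, and through oestrogen-related receptors.

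The promoters of 8 of the 9 genes were matched by symbol in the RefSeq table of build GRCm38.p6, which gives the 250 bases before and 50 after the start of transcription. Top1mt is the remaining gene. Set against the outermost annotated edge of each gene in the same build, a window lay at that offset for 19827 of 27025 genes and for 2 of the 8, so that positions for the other 6 are from the start the promoter table uses and not from that edge. Both strands were searched for CCGGAAG, a form of the GABP site, and for AAGGTCA, the half-site of oestrogen-related receptors. Only these exact letters were counted, so a promoter without them may still hold another form of either site. The GABP letters were in 5 of the 8 promoters (Tfam, Polg, Polg2, Polrmt and Ssbp1) and in 8.86% of all 32851 promoters of the table. These shares are not matched for base composition: the 8 promoters held 52.0% to 70.3% G and C, 7 of them above the table's median of 52.7%. In each of the 5, the match began 29 to 47 bases before the start. NRF-1 sites are not reported here. The oestrogen-related receptor letters were in 0 of the 8 and in 4.72% of all promoters. A match is a description of the sequence, not a bound site. The promoters of 4 genes are written out 5′ to 3′ on the strand of the gene, with the matches in capitals: those of Tfam (chr10:71237995-71238294, minus strand) and Polrmt (chr10:79746532-79746831, minus strand), which both rose, of Polg2 (chr11:106779488-106779787, minus strand), which fell and also holds the GABP letters, and of Lrpprc (chr17:84790737-84791036, minus strand), which rose and holds neither motif.
Tfam: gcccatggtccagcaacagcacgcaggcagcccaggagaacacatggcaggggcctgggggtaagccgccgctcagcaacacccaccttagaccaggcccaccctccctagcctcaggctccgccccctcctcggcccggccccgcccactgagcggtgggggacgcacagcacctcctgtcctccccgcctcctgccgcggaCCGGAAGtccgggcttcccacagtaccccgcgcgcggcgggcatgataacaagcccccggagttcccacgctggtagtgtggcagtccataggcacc
Polrmt: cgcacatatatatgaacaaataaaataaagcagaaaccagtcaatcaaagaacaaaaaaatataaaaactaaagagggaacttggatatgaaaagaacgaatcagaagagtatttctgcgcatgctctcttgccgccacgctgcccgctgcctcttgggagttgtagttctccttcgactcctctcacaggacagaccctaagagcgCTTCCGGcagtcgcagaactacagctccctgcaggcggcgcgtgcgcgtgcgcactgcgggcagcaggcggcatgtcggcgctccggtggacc
Polg2: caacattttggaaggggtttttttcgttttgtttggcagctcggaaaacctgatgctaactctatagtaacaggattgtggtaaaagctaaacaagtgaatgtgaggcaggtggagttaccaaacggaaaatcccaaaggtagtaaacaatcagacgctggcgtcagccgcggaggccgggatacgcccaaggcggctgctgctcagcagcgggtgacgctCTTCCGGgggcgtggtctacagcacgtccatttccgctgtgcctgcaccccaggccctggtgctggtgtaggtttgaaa
Lrpprc: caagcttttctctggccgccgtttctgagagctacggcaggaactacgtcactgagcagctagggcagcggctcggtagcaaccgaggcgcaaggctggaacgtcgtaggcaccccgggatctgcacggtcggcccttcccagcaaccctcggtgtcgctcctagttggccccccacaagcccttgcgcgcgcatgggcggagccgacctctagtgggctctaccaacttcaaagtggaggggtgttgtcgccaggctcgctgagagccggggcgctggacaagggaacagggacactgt

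Before the comparison, the labels and the arrays were checked. Ppargc1b itself was lower on the arrays labelled transgenic. Its only probe read 497.2, 648.7 and 708.9 before normalization in wild type against 281.3, 373.4 and 309.8, a log2 change of -1.32 (SE 0.21, limma adjusted p = 0.000734). The part of the mRNA that this probe reads, and whether the transgene holds it, are not known here, so every direction below rests on the genotype labels and the group is called labelled transgenic. Between 15338 and 15691 probes were above background on the wild-type arrays and between 17525 and 17604 on the others. The muscle fibre markers were present on every array, as the tissue label says. Their summed level, background-corrected and quantile-normalized, was however 226805 to 231880 in wild type and 176465 to 183590 in labelled transgenic. Of these 12 markers 1 rose, 5 fell and 6 did not pass, or 50% called against 56.3% of all genes tested. Their median change was -0.13 on the log2 scale. With arrays scaled to the detected probes 10 fell, and 29.7% of all genes were then lower. The fast-fibre genes Myh4 (-3.91, limma adjusted p = 3.98e-05) and Actn3 (-3.61, adjusted p = 2.07e-07) had the largest falls. The glycogen phosphorylase gene Pygm followed (-2.46, adjusted p = 1.32e-06). Ckm (-0.29) and Tnnt3 (-0.33) fell less. Acta1, Myh1, Mylpf, Tnni2, Pvalb and Atp2a1 did not pass, with changes from -0.13 to 0.23. The intermediate filament gene Des rose by 0.71 (adjusted p = 0.000679), or by 0.37 with arrays scaled to the detected probes. All 12 macrophage markers tested rose, with summed levels of 3293 to 3772 and 20159.8 to 34355.6, as did 9 of 11 fibroblast and matrix markers, with 15296.3 to 15750.1 and 26533.2 to 32625. Of 3 further macrophage markers, Ptprc was above background on 1 array and Itgam on none, and Cd68 was not analysed here. None of the 10 endothelial markers rose, and 2 fell, where 28.1% of all genes tested were higher and 28.2% lower. The part of these shifts in the differences below was not tested, and in whole muscle fewer cells of a type and less RNA per cell cannot be told apart.

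Levels are given as log2 of the background-corrected, quantile-normalized signal, a change is labelled transgenic minus wild type, and "rose" and "fell" refer to a Benjamini-Hochberg adjusted p under 0.05 from limma over the 9978 genes tested. Each of the 9 genes had a probe above background on all 6 arrays and was tested. Tfam, Polrmt and Lrpprc rose, Polg2 and Top1mt fell, and Tfb1m, Tfb2m, Polg and Ssbp1 did not pass. The array-wide background was high. Of all genes tested 56.3% passed in either direction, 28.1% as higher and 28.2% as lower, so 5 of 9 is close to the share of all genes. The 3 values of one group lay beyond the 3 of the other in 6 of the 9, against 63.8% of all genes. The median change of the 9 was 0.21, and that of all genes tested was -0.03.

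**Figure D1:**
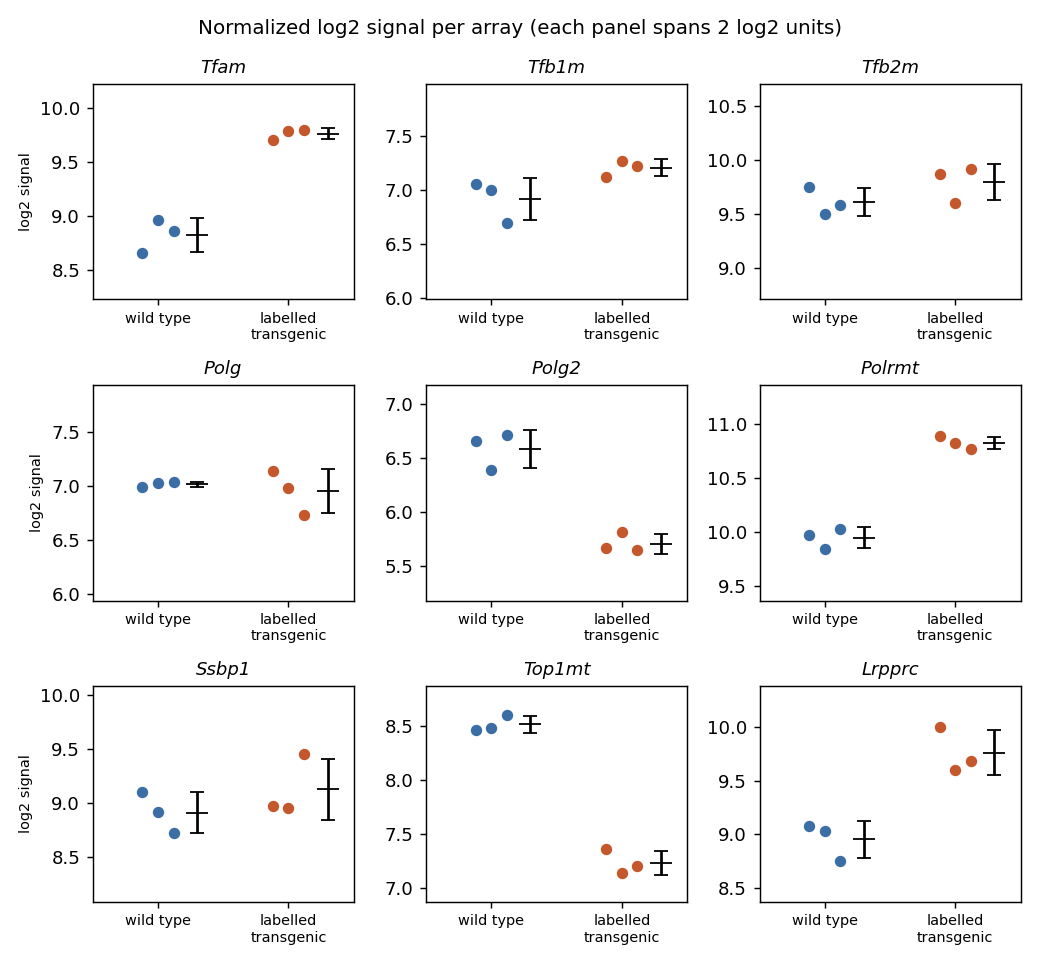
Normalized log2 signal of the 9 genes on each array, by genotype label. Points are arrays, the black dash and bar are the mean and SD of 3 arrays, and each panel spans 2 log2 units. Groups are apart for Tfam, Tfb1m, Polg2, Polrmt, Top1mt and Lrpprc and overlap for Tfb2m, Polg and Ssbp1.

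Among the genes of transcription initiation, Tfam and Polrmt rose. Tfam, the packaging and promoter-bending protein, had unnormalized signals of 437.9, 508.5 and 471.9 in wild type and 1024.7, 1014.3 and 916.1 in labelled transgenic. All 3 of the latter were above all 3 of the former. On the log2 scale Tfam rose from 8.83 ± 0.16 to 9.77 ± 0.05 (SD, n = 3), by 0.94 (SE 0.12, limma adjusted p = 0.00021), a 1.91-fold difference that was larger than the change of 88.1% of the genes tested. Its other probe read 427.3, 361.7 and 413.4 against 810.5, 878.5 and 729.1 and rose by 0.89 (SE 0.12, limma adjusted p = 0.000324 over all 17166 probes kept, of which 53.4% passed). Both probes thus showed the groups apart with close to the same change.

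Polrmt, the single-subunit RNA polymerase of the organelle, had signals of 1039.8, 909.7 and 1009.5 in wild type and 2138.9, 1955.5 and 1720.4 in labelled transgenic, again without overlap. Its log2 level rose from 9.95 ± 0.09 to 10.83 ± 0.06 (SD, n = 3), by 0.88 (SE 0.11, limma adjusted p = 0.000175), or 1.84-fold. The changes of Tfam and Polrmt differed by 0.06 (SE 0.14), less than the spread between arrays (exact two-sided permutation p = 0.8, and 0.8 after adjustment over the 4 pairs of genes compared).

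The paralogous methyltransferase-fold proteins TFB2M and TFB1M, an initiation factor and an rRNA methyltransferase, did not pass. The Tfb2m probe read 889.4, 716.8 and 749.2 in wild type and 1130.1, 906.3 and 984 in labelled transgenic, which did not overlap before normalization and did after it. Its log2 change was 0.19 (SE 0.13, 95% interval -0.10 to 0.48, limma adjusted p = 0.242). Tfb1m was a dimmer probe, at 172.4, 161 and 140.6 against 225.9, 236.3 and 201.8, with the groups apart before and after normalization. Its change of 0.29 (SE 0.13, limma adjusted p = 0.082) passed when each array was scaled to the median of its probes above background everywhere (0.39, adjusted p = 0.0284), so its call depended on the scaling. The changes of Tfb1m and Tfb2m differed by 0.10 (SE 0.17, exact two-sided permutation p = 0.6, adjusted p = 0.8).

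Of the polymerase subunit genes, Polg did not pass and Polg2 fell. Polg, the catalytic subunit, had signals of 167.3, 163.7 and 164.5 in wild type, a narrow range, and of 228.9, 204.9 and 159.7 in labelled transgenic, a wide one that overlapped it. Its log2 change was -0.06 (SE 0.13, 95% interval -0.35 to 0.23, limma adjusted p = 0.696). It turned to 0.30 with arrays scaled to the median of all probes, still without passing (adjusted p = 0.151).

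Polg2 encodes the accessory subunit that holds the polymerase on its template. Its brighter probe read 143.1, 123.2 and 141.8 in wild type and 116.3, 121.4 and 103.5 in labelled transgenic, and its log2 level went from 6.59 ± 0.17 to 5.71 ± 0.09 (SD, n = 3), a change of -0.88 (SE 0.12, limma adjusted p = 0.000418). The dimmer probe, at 105, 117.6 and 117 against 95.2, 111.6 and 88.3, overlapped before normalization and not after it, with a change of -0.80 (SE 0.16, limma adjusted p over probes = 0.00284). These signals are not far above the array medians of 73.3 to 78.8, and the size of the fall differed between settings. It was -0.51 with normexp fitted without negative controls and an offset of 50 in place of 16, changed together (limma adjusted p = 0.000592), and -0.45 without normalization between arrays (adjusted p = 0.0303), or -0.70 relative to the median of all genes there. The dimmer probe did not pass without that normalization (-0.42, adjusted p = 0.0718) or with arrays scaled to the median of all probes (-0.47, adjusted p = 0.0501). The changes of Polg and Polg2 differed by 0.82 (SE 0.16), and the within-array differences did not overlap between groups. The exact two-sided permutation p was 0.1, the smallest that 3 arrays against 3 allow, and 0.2 after adjustment.

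Ssbp1, the single-strand binding protein, had signals of 580.8, 494.3 and 430.7 in wild type and 642, 598 and 732.5 in labelled transgenic. These did not overlap, but after normalization they did, and the change was 0.21 (SE 0.17, 95% interval -0.16 to 0.59, limma adjusted p = 0.299). It ranged from 0.051, without labelled transgenic replicate 3, to 0.31 when 1 array was left out, and was 0.12 without wild-type replicate 3. Of its other probes, one was above background on 2 labelled transgenic arrays and the other on none, and neither was tested. The change of Tfam exceeded that of Ssbp1 by 0.72 (SE 0.23, exact two-sided permutation p = 0.1, adjusted p = 0.2), without overlap of the within-array differences.

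Top1mt, the mitochondrial topoisomerase, had the largest change of the 9 and it was a fall. The brightest probe read 386.5, 372.4 and 401.1 in wild type and 254.7, 221.8 and 199.1 in labelled transgenic, well apart. The log2 level fell from 8.52 ± 0.08 to 7.23 ± 0.11 (SD, n = 3), with a change of -1.29 (SE 0.11, limma adjusted p = 2.81e-05), or 2.44-fold. Only 3.41% of the genes tested had a lower change. A second probe, at 241.8, 251.8 and 211.8 against 124.4, 138.6 and 141.6, fell by 1.54 on the log2 scale (SE 0.17, limma adjusted p over probes = 9.82e-05). The third, with signals of 79.7 to 98.8, was above background on 2 of the 6 arrays and was not tested.

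Lrpprc, which stabilises mitochondrial mRNAs, rose, but its 3 probes gave unequal changes. The brightest read 572.8, 530.8 and 439 in wild type and 1221.1, 896.1 and 851.4 in labelled transgenic, and rose from 8.95 ± 0.17 to 9.76 ± 0.21 (SD, n = 3), by 0.80 (SE 0.15, limma adjusted p = 0.00161). The second, at 429.3, 381 and 320.1 against 565.1, 545.8 and 618.2, rose by 0.46 (SE 0.16, limma adjusted p over probes = 0.0359) and did not pass with arrays scaled to the detected probes (0.40, adjusted p = 0.0576). The groups were apart for both of these probes. The dimmest had 138.2, 91.9 and 112.1 against 148.4, 113.7 and 140.4, which overlapped, with a change of 0.05 (SE 0.29, limma adjusted p over probes = 0.893). The mean over the 3 probes changed by 0.44 (limma adjusted p = 0.0425). Which exons or transcript ends these probes read is not known here.

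**Figure D2:**
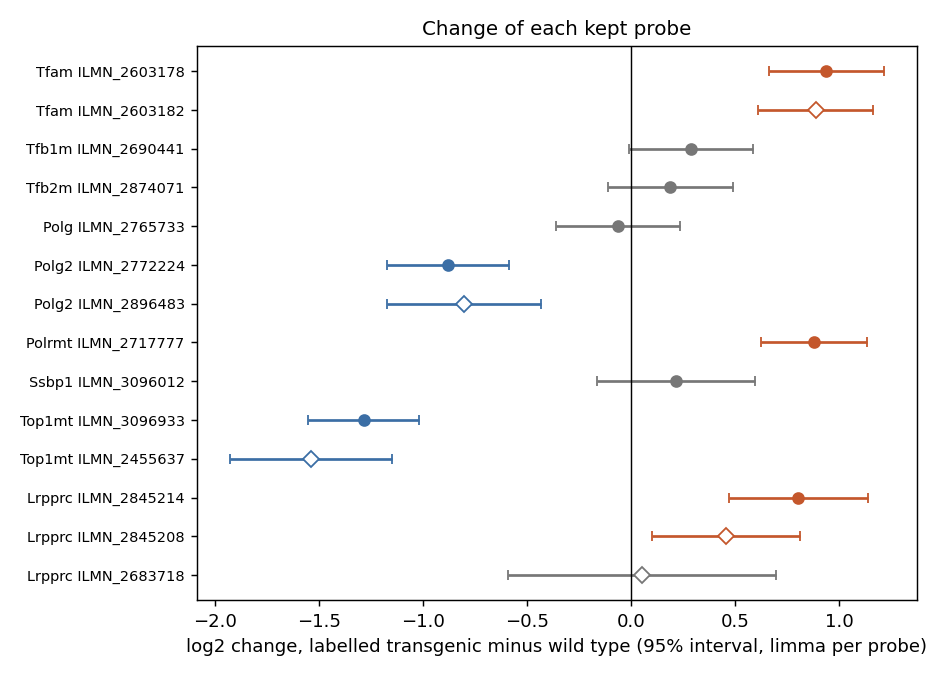
Log2 change of each of the 14 probes kept for the 9 genes, with its 95% interval from limma. Filled circles mark the probe that stands for the gene and open diamonds the others, orange is higher, blue lower and grey not past the threshold. The probes of Tfam, of Polg2 and of Top1mt gave changes of one sign and similar size, and those of Lrpprc ran from 0.05 to 0.80.

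The direction of change held under each scaling tried for all of the 9 genes except Polg. Tfam lay between 0.85 and 1.15 over 18 alternatives, Polrmt between 0.71 and 1.01, Lrpprc between 0.44 and 1.01, Polg2 between -0.98 and -0.45 and Top1mt between -1.41 and -0.97, and all 5 passed in each of the 18. Scaling to the median of all probes moved the median change of all genes from -0.03 to 0.19 and the share of called genes that were higher from 49.9% to 70.1%. Relative to that median, Tfam was then at 0.91, Polrmt at 0.77, Lrpprc at 0.77, Polg2 at -0.70 and Top1mt at -1.21.

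**Figure D3:**
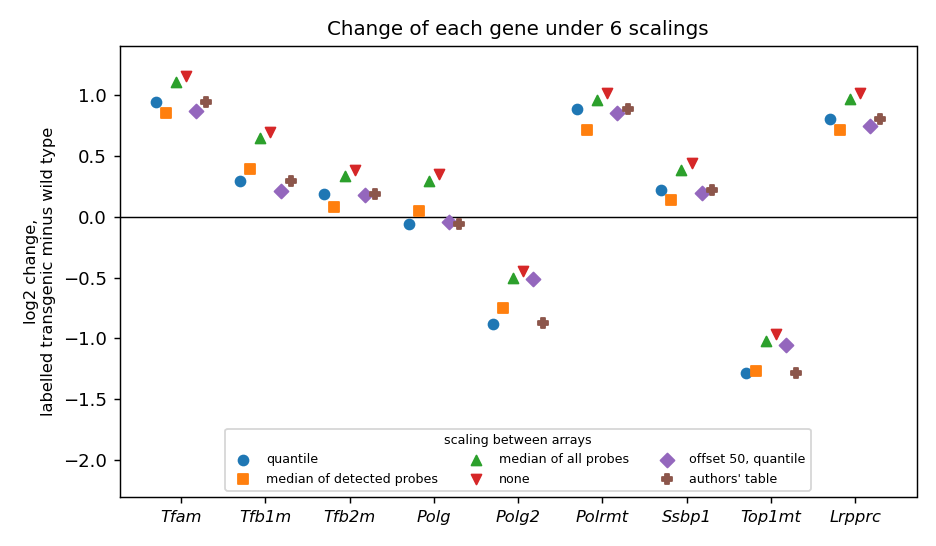
Log2 change of each of the 9 genes under 6 ways of scaling the arrays, one marker per scaling. Tfam, Polrmt and Lrpprc are above 0 and Polg2 and Top1mt below 0 under each of the 6, and Polg lies on both sides.

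The output of this machinery could be read in part, since the array carries probes for 8 of the protein-coding genes of the mitochondrial genome. These transcripts did not rise with Tfam and Polrmt. Of 7 genes above background, 0 rose and 1 fell, the other 6 did not pass, and the median change was -0.0022. Among all genes tested, 28.1% rose and 28.2% fell. The cytochrome b gene mt-Cytb had signals of 24445.1, 23999.4 and 22966.7 in wild type and 22244.3, 22389.9 and 20673.4 in labelled transgenic, and its log2 change was -0.0022 (limma adjusted p = 0.987). The complex IV gene mt-Co2 read 8805.8, 5307.2 and 5299.2 against 6185.9, 6158 and 7662 and overlapped, as did the complex V gene mt-Atp6. The complex I gene mt-Nd5 fell by 0.67 on the log2 scale (SE 0.13, limma adjusted p = 0.00223), with 389.8, 366.6 and 415 against 326.7, 356.3 and 259.4, and did not pass without normalization between arrays (-0.38, adjusted p = 0.0656). The highest change was that of mt-Nd4l, another complex I gene, at 0.34 (limma adjusted p = 0.12). Before normalization its groups were apart, with labelled transgenic higher. Those of mt-Nd1, mt-Nd4, mt-Nd5 and mt-Cytb were apart as well, with labelled transgenic lower. mt-Nd6, the one gene of the set read from the other strand of the circle, was not above background on any array.

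These counts depend on the scaling. With arrays scaled to the detected probes 4 of the 7 fell and 0 rose, with mt-Nd1 at -0.55, mt-Nd4 at -0.54 and mt-Cytb at -0.43. Of all genes 29.7% were then lower and 27.3% higher. With arrays scaled to the median of all probes 1 rose and 1 fell, while 37.8% of all genes were higher and 16.1% lower. No scaling tried gave more than 1 rise among the 7. The brightest of these probes reached 78.1% of the highest signal on an array, and how far such signals still follow the amount of RNA was not tested. RNA was primed with oligo-dT, so the values also depend on the poly(A) tails of these transcripts, and the number of mitochondrial DNA copies was not measured.

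**Figure D4:**
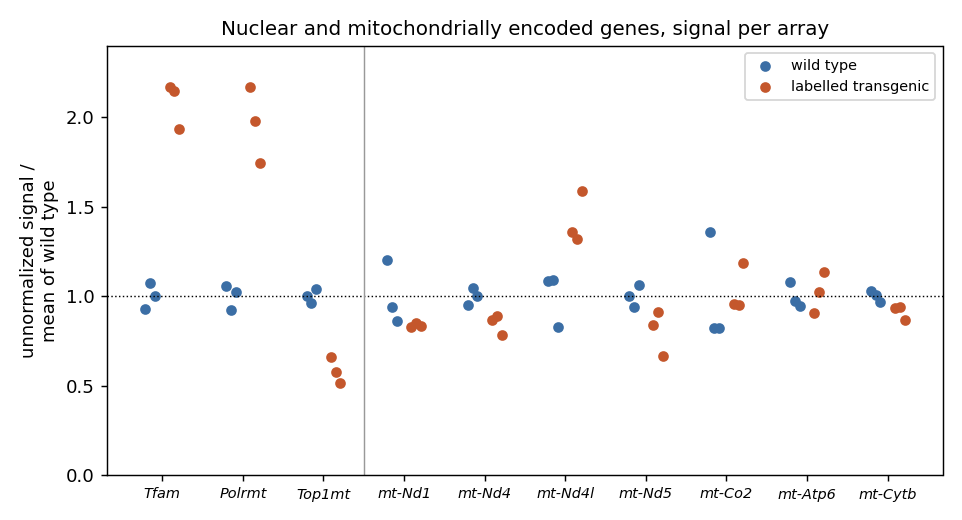
Unnormalized signal of each array divided by the wild-type mean of the same probe, for Tfam, Polrmt and Top1mt (left of the line) and 7 mitochondrially encoded genes (right). Blue points are wild type and orange points labelled transgenic, 3 arrays each. Tfam and Polrmt are well above 1 on all labelled transgenic arrays, while the mitochondrial transcripts lie closer to 1, with mt-Nd4l highest.

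The other genes of the pathway, grouped by role, went both ways. Over 5 role groups 22 of 66 genes tested rose and 15 fell, 56.1% called against 56.3% of all genes tested. No group was tested against the rest of the array. Of 14 genes of the wider replication and DNA maintenance machinery tested, 2 rose and 6 fell (57.1% called), with a median change of -0.21. Ung, encoding the uracil glycosylase that removes uracil from DNA, rose by 1.60 (limma adjusted p = 1.84e-05), and Atad3a, encoding a membrane ATPase associated with nucleoids, rose by 0.90 (adjusted p = 0.000114). The DNA ligase gene Lig3 changed by -0.93 (adjusted p = 0.000233) and the repair polymerase gene Polb by -0.86 (adjusted p = 0.0021), both falls. Several of these proteins, LIG3 and POLB among them, also serve nuclear DNA. With arrays scaled to the median of all probes the count was 6 rises and 4 falls, and among all genes 37.8% were then higher and 16.1% lower, in place of 28.1% and 28.2%. Without normalization between arrays the changes of Lig3 and Polb were -0.58 and -0.51. Twnk, the replicative helicase that works ahead of the polymerase, changed by 0.21 (adjusted p = 0.181). It passed as higher with arrays scaled to the median of all probes (0.48, adjusted p = 0.0134).

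For the supply of nucleotides, 5 of 13 genes rose and 1 fell (46.2% called), with a median change of 0.30. The largest rises were those of the mitochondrial nucleotide kinase gene Cmpk2 (1.69, limma adjusted p = 0.000107), of the thymidine phosphorylase gene Tymp (1.65, adjusted p = 6.02e-05), above background on 2 of the wild-type arrays, and of Samhd1 (1.17, adjusted p = 0.000253), whose product breaks down deoxynucleotides. With the offset of 50 Cmpk2 was at 1.10 and Tymp at 0.997, and both passed. Cmpk2 and Samhd1 are also known as interferon-induced genes of myeloid cells, and the summed macrophage markers given above were higher on the same arrays. Any link between these rises was not tested. Rrm1, the large subunit of ribonucleotide reductase, fell, with a change of -0.99 (adjusted p = 0.00158). The kinases of the mitochondrial salvage pathway, Tk2 and Dguok, changed by -0.02 and -0.07 and did not pass (adjusted p = 0.895 and 0.627).

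Of 6 genes of transcription elongation and termination 2 rose and 1 fell (50% called, against 56.3% of all genes tested). Mrpl12, a ribosomal protein that has also been reported to bind POLRMT, rose by 0.75 (limma adjusted p = 0.000518) and Mterf4, of the mTERF family, by 0.64 (adjusted p = 0.00291). Mterf1, the founding member of that family and annotated here as Mterf1a, had -0.33 (adjusted p = 0.0424), a fall that was lost under 4 of the 5 other settings tried and turned to 0.04 with the median of all probes. Mrpl12 was at 0.49 with arrays scaled to the detected probes. The elongation factor gene Tefm had a change of 0.06 (adjusted p = 0.653).

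In RNA processing and stability 10 of 22 genes rose and 4 fell (63.6% called), with a median change of 0.29. Mrm3, an rRNA methyltransferase gene, rose by 1.23 (limma adjusted p = 4.68e-05) and Tbrg4, of the FASTK family, by 1.19 (adjusted p = 7.72e-05). Mrps27, a pentatricopeptide-repeat ribosomal protein gene, rose by 1.17 (adjusted p = 0.000603). Of 73 mitochondrial ribosomal protein genes tested, Mrpl12 and Mrps27 among them, 44 rose and 3 fell. These are 60.3% and 4.11%, against 28.1% and 28.2% of all genes tested. Fastkd3, of the same family as Tbrg4, fell, with a change of -0.95 (adjusted p = 0.00112), or -0.58 without normalization between arrays. Slirp, the partner of LRPPRC, rose from 11.14 ± 0.08 to 11.97 ± 0.14 (SD, n = 3), by 0.82 (adjusted p = 0.000442), next to the 0.80 of Lrpprc. The rises numbered 9 to 13 and the falls 2 to 4 over the other 5 settings. Of all genes tested, 27.3% to 39.8% were higher and 14% to 29.7% lower under those settings.

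Among nuclear regulators of the pathway 3 of 11 rose and 3 fell (54.5% called). Gabpa, the DNA-binding subunit of GABP, rose from 5.48 ± 0.22 to 6.30 ± 0.18 (SD, n = 3), by 0.82 (limma adjusted p = 0.00165). Its probe was near background, with wild-type signals of 99.8, 87.6 and 92, and its change lay between 0.44 and 1.21 over the other 5 settings. The genes of the partner subunits did not rise: Gabpb2 fell, with a change of -0.77 (adjusted p = 0.00259), and Gabpb1 had -0.06 (adjusted p = 0.736). The call of Gabpb2 was lost with arrays scaled to the median of all probes (-0.43, adjusted p = 0.0529) and without normalization between arrays (-0.38, adjusted p = 0.0879), where Gabpb1 was at 0.28 and 0.34 without passing. Nrf1 changed by -0.16 (adjusted p = 0.353). Esrrb, an oestrogen-related receptor gene, rose by 2.14 (adjusted p = 1.78e-05). Ppargc1a had a log2 change of -1.61 (adjusted p = 0.000314), also a fall, above background on 2 of the labelled transgenic arrays, and -0.94 with the offset of 50. Ppargc1b fell as given above.

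**Figure D5:**
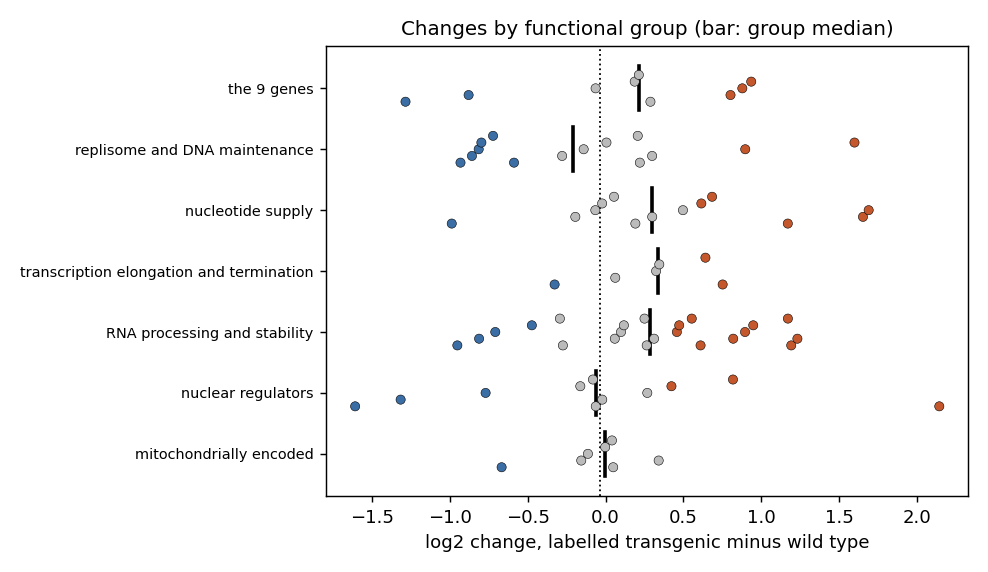
Log2 change of each gene tested in 7 functional groups, with the 9 genes at the top. Orange is higher, blue lower and grey not past the threshold, black bars are group medians, and the dotted line is the median of all genes tested (-0.03). Replication and maintenance has more blue than orange points, RNA processing the reverse, and mitochondrially encoded genes lie mostly near 0.

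As a description of likeness, the genes whose centred log2 values on the 6 arrays lay closest to those of Tfam were Lrrn1, Agrn and Ppcs, at root mean square distances of 0.045, 0.056 and 0.057 on the log2 scale. For Top1mt they were C1qtnf12, Zbtb18 and Cacng6, at 0.027, 0.050 and 0.051. With arrays in 2 groups this likeness mostly restates a similar change, which was 0.97, 0.96 and 0.85 for the first set and -1.30, -1.28 and -1.25 for the second.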

How the data were processed

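Biotinylated cRNA was made from total RNA by T7 amplification primed with oligo-dT, per the labels' protocols. GenomeStudio was used, per the submitters' processing notes. The deposited unnormalized table holds 1 intensity per probe and array, neither background-subtracted nor scaled, and, for each, a deposited detection p-value against the array's negative controls. A second table of the authors holds intensity values that were background-subtracted and quantile-normalized, with settings not given in the sources used here. Intensities were processed with neqc in limma 3.58.1 (R 4.3.3, offset 16). Probes detected at p under 0.05 on at least 3 arrays were kept (17166), and the brightest of a gene's kept probes stood for it (9978 genes). Gene symbols came from the platform annotation. Groups were compared with lmFit and eBayes, two-sided. Differences of changes used exact permutation tests over 4 pairs. The testing step was tested on simulated data.

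The members, lists and named genes were chosen with earlier results of these data known. The rule named all members, up to 4 called genes per list by size, and Ppargc1b. Twnk, Tefm, Tk2, Dguok, Slirp, Nrf1, Gabpb1, Gabpb2, the named muscle fibre markers and mitochondrial genes besides mt-Nd5 were added after their values were seen. Sequences are from RefSeq. The number of arrays limits the precision.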

Additional observations from a re-analysis of the deposited data

How the results depend on the processing

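Of 162 values of the 9 genes under 18 other settings, chosen with earlier results known, 154 kept their direction and side of the threshold, 4 gained a call and 4 changed sign without one. The 4 gains were Tfb1m under the 3 scalings without quantiles (0.39, 0.64 and 0.70) and Ssbp1 without normalization between arrays (0.44). Polg turned to 0.045 with arrays scaled to the detected probes, 0.30 with the median of all probes and 0.35 without normalization, and ranged from -0.16 to 0.048 when 1 array was left out, the latter without transgenic replicate 3. The 3 genes higher and 2 lower became 5 and 2 without normalization. Of all genes tested, 39.8% were then higher and 14% lower, in place of 28.1% and 28.2%. Genes called lower numbered 1607 with the median of all probes and 1401 without normalization, against 2812. Testing every probe gave 9168 calls among 17166 probes, 4376 higher and 4792 lower. Lists were tried under other scalings after seeing the data: mt-Co2 was -0.22 with the detected probes, mt-Atp6 -0.28 and, with the median of all probes, -0.026, and Mterf1 0.044 and, without normalization, 0.095, and Gabpb1 0.034 with the detected probes, 0.28 with the median of all probes and 0.34 without normalization. The cause was not tested. With the replicate number as a block the 9 genes again gave 3 higher and 2 lower, and 5337 genes passed in place of 5613. Same-numbered arrays showed little common deviation (correlations of -0.051, 0.031 and -0.0022 across genes). With 3 arrays per group this does not show whether they share a batch, and the labels give only the number. With signals of 103.5 to 143.1, Polg2 was near background, which limits its fold.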
